A study of Caenorhabditis elegans with 12 samples.

Results

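The cells described here are the amphid sheath (AMsh) glia of che-2(e1033) larvae of Caenorhabditis elegans, set against all other cells sorted from the same animals. They were chosen by genotype and sort gate alone: the 3 che-2 AMsh libraries and the 3 che-2 non-AMsh libraries, 6 of the 12 libraries in the series. The AMsh fraction is the dsRed-positive cells of strain OS11549, which carries the che-2(e1033) allele and a dsRed reporter driven by the F16F9.3 promoter. The non-AMsh fraction is the dsRed-negative cells that passed the same size and granularity gates. The other 6 libraries hold both fractions of strain OS4079, which carries the same reporter in a wild type background, and enter here only to estimate the spread and for 1 comparison at the end. Synchronised cultures were started from L1 arrest and grown with shaking at 20 °C for 36 to 42 hours, to the L3 and L4 stages. They were then dissociated with SDS-DTT and Pronase E and sorted. Each genotype has 3 cultures, coded E30, E35 and E36, and the 2 fractions of each culture were sorted from 1 set of animals. The sort is only as clean as the promoter and the gate: 168356 to 240125 positive events per replicate, 0.1 to 0.4% of all events, gave 0.4 to 5 ng of RNA per sample, which was amplified before sequencing. Each genotype is represented by 1 strain.

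The AMsh glia are a pair of cells, one on each side of the head, that wrap amphid sensory endings and open a channel through which many of these endings reach the environment. They are known as secretory cells: they fill the channel and the pockets around the endings with matrix proteins, and they take up fragments shed by some neurons. che-2 encodes a component of intraflagellar transport, the system that builds cilia, and in che-2 mutants the ciliated tips of these neurons are truncated, so the glia studied here face sensory endings without normal cilia. The question of the comparison is which genes such glia express above the rest of the body.

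Totals were 20783265 to 23178841 counts in the che-2 AMsh libraries and 15420762 to 18211377 in the che-2 non-AMsh libraries. Genes with at least 1 count numbered 15711 (E35) to 18791 in the AMsh libraries and 18033 to 18540 in the non-AMsh libraries. Ribosomal RNA genes took 6.88% of the counts of AMsh E35, against 1.28 to 4.62% in the other 5 libraries. Mitochondrial genes took 14.2 to 16.6% in the AMsh libraries and 10.5 to 17% in the non-AMsh libraries. Levels are given in CPM, the count as a share of the TMM-scaled library size, always in the order E30, E35, E36. Of 46726 genes in the table, 24533 had no count in these 6 libraries, and 16690 had enough counts over the 4 groups to be tested. che-2 itself was at 0.669, 12.5 and 4.69 CPM in the AMsh libraries and 1.28, 3.71 and 0.281 CPM in the non-AMsh libraries, so the transcript was detected in the mutant and its fractions overlapped (log2 fold change 1.76, SE 1.54, adjusted p = 1.00, edgeR's quasi-likelihood test).

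In che-2 animals, 99 genes were higher in AMsh glia than in the other cells and 0 were lower by edgeR's quasi-likelihood test (adjusted p under 0.05), which is 0.593% of the genes tested. Counted at an unadjusted p under 0.05, 497 genes differed, 93 of them lower in AMsh. The genes higher in AMsh were changed by large amounts: their log2 fold changes ran from 1.59 to 8.30 with a median of 4.85, against a median of 0 over all tested genes. In each of the 99, every AMsh library lay above every non-AMsh library, as in 4.52% of all tested genes. These genes took 0.983, 5.58 and 3.86% of the counts of the AMsh libraries (exact 95% binomial intervals 0.979 to 0.988, 5.57 to 5.59 and 3.85 to 3.87), against 0.139, 0.132 and 0.139% in the non-AMsh libraries. This fit does not use the pairing of the fractions by culture. With the culture as a replicate block, 81 genes were higher, 67 of them among the 99, and 1 was lower. The count also depended on the libraries in the fit. It was 56 without AMsh E35, 52 without AMsh E36, and 0 without any 1 of the 3 non-AMsh libraries or with the 6 che-2 libraries alone, while DESeq2 called 174 higher and 9 lower. All 99 kept a positive log2 fold change in all 30 alternatives. Genes without overlap between the groups can hardly change sign when libraries are left out, so nothing is read from this. Because these are bulk fractions, a gene expressed in fewer cells and a gene with less RNA per cell cannot be told apart.

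Genes used to mark AMsh glia were enriched in the fraction in part. F16F9.3 lends its promoter to the reporter by which the cells were sorted, so its enrichment is not a separate check of the fraction. This gene (WBGene00017514, chromosome X, 8457638 to 8459840) was at 73.5, 465 and 257 CPM in AMsh and 8.58, 5.19 and 6.75 CPM in non-AMsh libraries (log2 fold change 5.27, SE 0.69, adjusted p = 0.00644). Whether the reporter carries transcribed F16F9.3 sequence is not given in the sources used here. T02B11.3 (WBGene00020155, chromosome V, 865076 to 866829), another gene whose promoter is used to label these cells, was at 211, 1884 and 825 CPM in AMsh and 48.8, 73.9 and 62.1 CPM in non-AMsh libraries (3.98, SE 0.72, adjusted p = 0.0302). In both genes the AMsh library of E30 was the lowest of its group and that of E35 the highest, and the groups did not overlap. fig-1 (WBGene00009968, chromosome V, 10970358 to 10980774) encodes a large secreted protein with thrombospondin repeats that AMsh glia supply to the amphid channel. It was at 25.6, 228 and 82.6 CPM in AMsh against 14.4, 8.07 and 10.22 CPM in non-AMsh libraries (3.36, SE 0.65, adjusted p = 0.0432), and E30 was the culture with the least separation. vap-1 (WBGene00006886, chromosome X, 17393789 to 17396467), a secreted protein of the venom allergen-like CAP family, was at 52.1, 454 and 146 CPM in AMsh and 5.33, 7.54 and 2.48 CPM in non-AMsh libraries (5.41, SE 1.07, adjusted p = 0.0480). The adjusted p of edgeR's fit with the culture as a block, called the blocked adjusted p from here on, is given for named genes where it changes the call: neither fig-1 (blocked adjusted p = 0.268) nor vap-1 (blocked adjusted p = 0.0760) passed in that fit. The named genes that lose their call with the block had an adjusted p of 4.88e-10 to 6.88e-05 in the alternative most favourable to them and of 0.452 to 1.00 in the least favourable.

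Of the 18 AMsh markers listed, 7 were higher and 0 lower, where 0.593% of all tested genes were called higher. Their median was 3.09, against 0 over all tested genes. In the blocked fit 4 of the 7 also passed. Earlier results from these libraries were known when the markers were picked, so their count is not a separate check. A separate list of 16 AMsh markers was used to check the cells. Without spig-9, its most abundant member, the rest of that list summed to 599, 3459 and 1564 CPM in AMsh libraries. In non-AMsh libraries the same sums were 189.8, 250.3 and 173 CPM. kcc-3, the potassium-chloride cotransporter that AMsh glia place around the ending of the thermosensory neuron AFD, was at 91.1, 257 and 114 CPM in AMsh and 10.7, 28.1 and 20.3 CPM in non-AMsh libraries. Its groups did not overlap, but it did not pass (2.97, SE 0.62, adjusted p = 0.0652; blocked adjusted p = 0.0489). pros-1, the Prospero-related regulator of AMsh secreted genes, was at 8.47, 57.1 and 18.6 CPM in AMsh and 4.17, 1.24 and 1.17 CPM in non-AMsh libraries and did not pass (3.68, SE 1.45, adjusted p = 1.00). ver-1, a receptor tyrosine kinase gene of AMsh glia, had counts only in AMsh E30, at 3.83 CPM, and none in the other 5 libraries. The 11 of the 18 listed markers that did not pass also held genes with little difference between the fractions. The lowest change was -0.63 for daf-6, the patched-related gene of the amphid channel, at 13.7, 0.844 and 6.39 CPM in AMsh and 18.9, 2.24 and 11.4 CPM in non-AMsh libraries (adjusted p = 1.00).

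**Figure D1:**
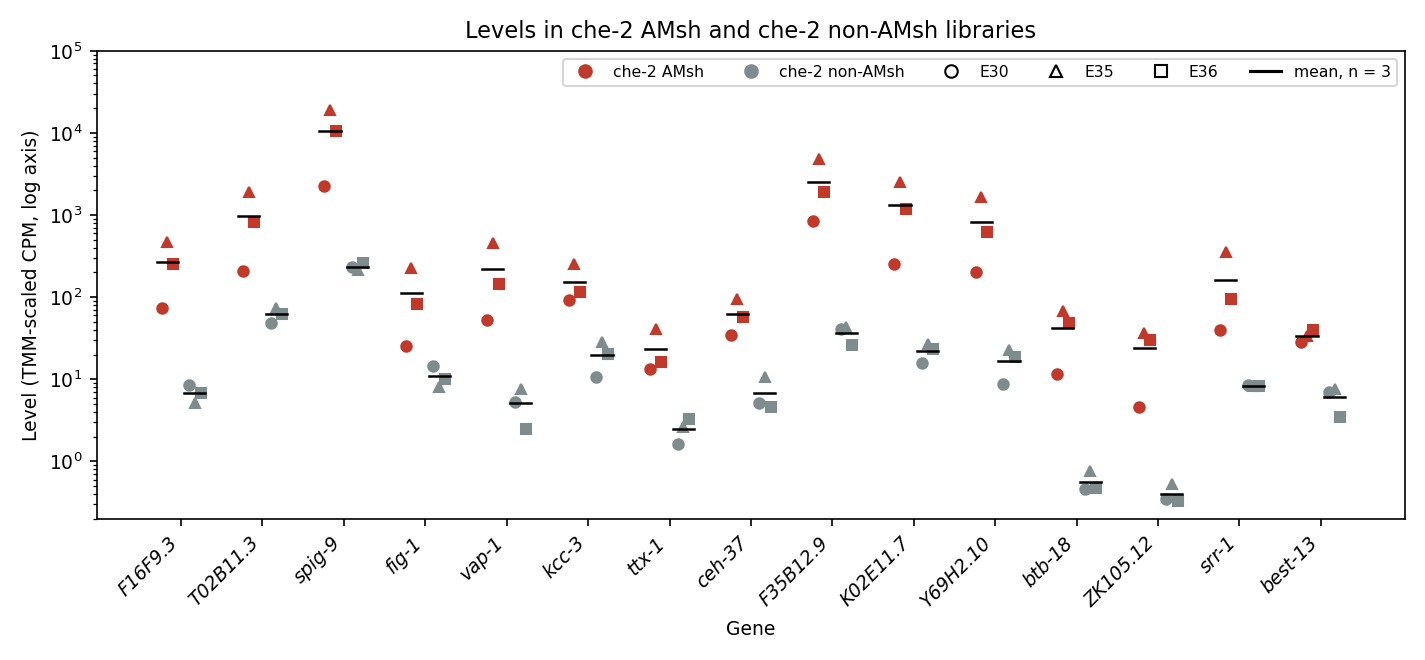
Levels of 15 genes in the che-2 AMsh libraries (red, left of each gene) and the che-2 non-AMsh libraries (grey, right), as TMM-scaled CPM on a log axis; symbols mark the cultures and black lines the mean of 3 libraries. In each of these genes every AMsh library lies above every non-AMsh library, and AMsh E30 is the lowest AMsh library.

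The largest enrichments among well-measured genes were 6.22 to 5.45 on the log2 scale and fell mostly on genes with no name beyond their sequence name, so little can be said of what they do. btb-18 (WBGene00018201, chromosome II, 3298395 to 3300676), which encodes a BTB-domain protein, led them at 11.7, 67.0 and 48.8 CPM in AMsh and 0.464, 0.766 and 0.469 CPM in non-AMsh libraries (6.22, SE 1.13, adjusted p = 0.0302). F35B12.9 (WBGene00009388, chromosome V, 11601119 to 11602360) was at 836, 4806 and 1914 CPM in AMsh and 41.3, 43.1 and 26.2 CPM in non-AMsh libraries (6.09, SE 0.75, adjusted p = 0.00644). K02E11.7 (WBGene00010516, chromosome V, 14253488 to 14254320) was at 253, 2503 and 1172 CPM in AMsh and 15.8, 26.8 and 23.1 CPM in non-AMsh libraries (5.90, SE 0.72, adjusted p = 0.00644). In these 3 genes the lowest AMsh library, E30, was still well above the highest non-AMsh library. ZK105.12 (5.88), Y57G11C.38 (5.702), Y69H2.10 (5.65), F07C6.3 (5.61), K11E4.1 (5.51), C15B12.4 (5.50) and C47E12.9 (5.45) followed, with adjusted p between 0.00644 and 0.0114 by edgeR's quasi-likelihood test. R08E5.4 (6.04, blocked adjusted p = 0.0502), F11E6.10 (5.85, blocked adjusted p = 0.0811), C07G3.8 (5.77, blocked adjusted p = 0.0896), C54F6.6 (5.599, blocked adjusted p = 0.0609) and F59D12.3 (5.57, blocked adjusted p = 0.0793) passed without the block and not with it. C12D5.10 had the largest fitted change, but from 1 count in the whole non-AMsh group: it was at 1.47, 20.4 and 0.939 CPM in AMsh libraries, and the ratio of its counts has a 95% counting interval of 61.5 to 13630.0.

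Among the 99 genes, the highest level in AMsh belonged to a small protein. Per kilobase of exon, spig-9 (WBGene00009995, chromosome V, 13611336 to 13611888), of 114 residues, reached a mean of 23390 CPM per kb in AMsh libraries, the 5th highest of all tested genes, and 523 CPM per kb, the 288th, in non-AMsh libraries. Its level was 2279.8, 18799 and 10498 CPM in AMsh against 232, 215 and 259 CPM in non-AMsh libraries (5.48, SE 0.74, adjusted p = 0.00687). The non-AMsh libraries were close together and the AMsh libraries spread over a wide range. Among the 99 genes tag-209, the 50th highest of all tested genes in AMsh, followed at 2939 CPM per kb in AMsh and 109 CPM per kb in non-AMsh libraries, then K02E11.7 at 2722 and 45.5, C14E2.12, annotated as a small nucleolar RNA, at 2439 and 313, Y42G9A.2 at 2224 and 66.6, F35B12.9 at 2190 and 32.05, and spig-1 at 2163 and 86.4 CPM per kb. With the block C14E2.12 did not pass (blocked adjusted p = 0.167). Of the genes named spig, grouped here after their values were seen, all 9 were tested, 6 were higher, and the log2 fold changes of the 9 ran from 4.50 to 5.48. In all 9 every AMsh library lay above every non-AMsh library, as in 4.52% of all tested genes. Over all tested genes 0.593% were called. Because the family was picked by its values, nothing is read from these counts. The members that passed besides spig-9 were spig-1 (4.65), spig-5 (4.84, blocked adjusted p = 0.0655), spig-6 (4.81), spig-7 (4.75) and spig-10 (4.94). The family named srlf did not behave as a unit: 3 of 20 tested members were higher (srlf-32 at 5.04, srlf-28 at 4.66 and srlf-3 at 3.10), and the median of the 20 was 0.14. Where members of a family are alike in sequence, the counting may have moved reads between them, and the setting for such reads is not given in the sources used here.

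Few of the 99 genes were in the lists of transcription regulators. Over all tested genes 0.593% were called, and nothing is read from the number of calls in these lists. Of 75 tested homeobox and other AMsh-fate regulators, 2 were higher, both of the Otx type, and the list median was 0.23. ttx-1 (WBGene00006652, chromosome V, 20053733 to 20064174) is needed for the identity of the AFD neuron and, in AMsh glia, for the expression of ver-1. It was at 13.3, 40.6 and 16.2 CPM in AMsh and 1.62, 2.59 and 3.28 CPM in non-AMsh libraries (3.22, SE 0.56, adjusted p = 0.0228; blocked adjusted p = 0.0609). ceh-37 (WBGene00000458, chromosome X, 14197362 to 14209153), known for its role in the AWB olfactory neuron, was at 34.7, 93.8 and 58.0 CPM in AMsh and 5.16, 10.8 and 4.59 CPM in non-AMsh libraries (3.18, SE 0.49, adjusted p = 0.0119). In neither gene did the fractions overlap. None of 207 nuclear hormone receptor genes passed by edgeR's quasi-likelihood test. The member with the smallest p, nhr-50, was at 33.0, 149 and 64.6 CPM in AMsh and 24.5, 22.5 and 14.9 CPM in non-AMsh libraries (1.999, SE 0.65, adjusted p = 0.760). Of 217 BTB, MATH and F-box genes, btb-18 alone passed, and the list median was -0.01.

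Among secreted and extracellular proteins, the lists of large families had 0 to 2 called members each and medians near 0, at a share of 0.593% called over all tested genes. Among 146 C-type lectin genes 2 were higher, clec-224 at 16.3, 158 and 57.3 CPM in AMsh and 2.32, 0.884 and 1.55 CPM in non-AMsh libraries (5.601, SE 0.94, adjusted p = 0.0184) and clec-199 at 58.0, 351 and 71.3 and 5.74, 4.36 and 1.88 CPM (5.33, SE 0.91, adjusted p = 0.0200), and the list median was -0.04. With the block neither passed (blocked adjusted p = 0.0771 for clec-224 and 0.0599 for clec-199). Among 46 astacin and other matrix protease genes 2 were higher, and both also passed with the block. nas-31, an astacin metalloprotease gene, was at 43.9, 494 and 164 CPM in AMsh and 7.36, 6.25 and 5.02 CPM in non-AMsh libraries (5.23, SE 0.79, adjusted p = 0.0110). nas-32, of the same family, was at 50.8, 287 and 85.2 CPM in AMsh and 7.02, 5.01 and 3.28 CPM in non-AMsh libraries (4.79, SE 0.73, adjusted p = 0.0112). Their list median was 0.16. Of 22 genes of secreted CAP proteins, vap-1 alone passed, with a list median of -0.18. Another member, scl-3, missed the threshold narrowly at 75.7, 893 and 325 CPM in AMsh and 24.9, 53.8 and 40.3 CPM in non-AMsh libraries (3.44, SE 0.71, adjusted p = 0.0651; blocked adjusted p = 0.0372). Of 66 saposin-like, lysozyme and caenacin genes, spp-19 passed (4.67, SE 0.85, adjusted p = 0.0294; blocked adjusted p = 0.294). Of 57 transthyretin-related genes none passed, and ttr-43, which had the smallest p, was at 72.2, 677 and 303 CPM in AMsh and 14.96, 55.6 and 21.8 CPM in non-AMsh libraries (3.51, SE 0.82, adjusted p = 0.136; blocked adjusted p = 0.0265). Cuticle collagens (170 tested, median -0.08), apical matrix and zona pellucida genes (52, median 0.10), hedgehog-related and patched-related genes (85, median 0.06) and basement membrane and integrin genes (23, median 0.09) had 0 members called in either direction.

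The lists for transport, lipids and detoxification had 0 to 2 called members each. Over all tested genes 0.593% were called, so lists of this size hold few calls at that share. best-13, a bestrophin-type chloride channel gene, was the 1 of 149 ion channel and transporter genes to pass. Its 3 AMsh libraries were close together at 28.5, 33.7 and 39.7 CPM, against 6.96, 7.66 and 3.52 CPM in non-AMsh libraries (2.49, SE 0.40, adjusted p = 0.0145; blocked adjusted p = 0.0546). far-8, of the family that binds fatty acids and retinol, was at 56.4, 499 and 185 CPM in AMsh and 14.6, 22.2 and 15.7 CPM in non-AMsh libraries (3.82, SE 0.73, adjusted p = 0.0418), and was the 1 of 16 binding proteins called. Of 166 glutathione transferase, UDP-glucuronosyltransferase and cytochrome genes, 2 passed. These were ugt-29 (3.11, SE 0.58, adjusted p = 0.0385; blocked adjusted p = 0.178) and ugt-31 (2.71, SE 0.53, adjusted p = 0.0438; blocked adjusted p = 0.148). The 20 lipid desaturation and elongation genes had 0 members called and a median of -0.16.

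Several lists for what glia are known to do had no called member. At the 0.593% called over all tested genes, lists this short often hold none, and nothing is read from these counts. Engulfment (23 genes tested, median 0.19), endoplasmic reticulum folding and secretion (59, median 0.03), heat shock and stress (25, median 0.03), autophagy and lysosome (77, median 0.04) and the dauer pathway (20, median 0.15) had 0 genes higher and 0 lower by edgeR's quasi-likelihood test. Their members with the smallest p were piki-1 (0.75), atf-4 (0.65), skn-1 (0.48), vha-5 (1.08) and akt-1 (0.59), none passing. vha-5, a subunit of the vacuolar proton pump, was at 63.2, 129.8 and 82.5 CPM in AMsh and 54.2, 40.5 and 35.9 CPM in non-AMsh libraries. Its groups did not overlap (adjusted p = 0.582). Among 15 genes of the amphid channel and of dendrite anchoring, fig-1 alone was called, and the median was 0.05. Of the 10 tested genes of other glia none was called, with a median of 0.22; mls-2, a homeobox gene of other glia, had no count in the AMsh libraries and 0.116, 0.766 and 0.0938 CPM in non-AMsh libraries (adjusted p = 0.933).

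Receptor genes, which elsewhere in the nervous system belong to sensory neurons, held 1 called member, srr-1. Over all tested genes 0.593% were called. At that share lists of this size hold few calls, and nothing is read from their number. Of 237 tested chemoreceptor genes it was the 1 to pass, at 40.2, 349.8 and 94.4 CPM in AMsh and 8.64, 8.19 and 8.30 CPM in non-AMsh libraries (4.27, SE 0.70, adjusted p = 0.0159; blocked adjusted p = 0.0551). Its non-AMsh libraries were nearly equal, while its AMsh libraries spread widely with E35 highest. None of 30 receptor guanylyl cyclase genes passed (median 0.42). gcy-27 had the smallest p, at 3.25, 33.4 and 25.5 CPM in AMsh and 2.15, 1.94 and 2.203 CPM in non-AMsh libraries (3.30, SE 0.74, adjusted p = 0.108). Neuropeptide and insulin genes (134 tested, median 0.34) and pan-neuronal and synaptic genes (27, median 0.24) had 0 called members. The 52 cilium genes had 0 called members too, with a median of 0.96 and 45 positive changes, against a median of 0 and 49.8% positive over all tested genes. In 11 of the 52 every AMsh library lay above every non-AMsh library, as in 4.52% of all tested genes. che-11, a component of the retrograde intraflagellar transport complex, had the smallest p of the list, at 14.6, 38.9 and 6.75 CPM in AMsh and 8.87, 4.01 and 4.88 CPM in non-AMsh libraries (1.76, SE 0.64, adjusted p = 1.00).

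**Figure D2:**
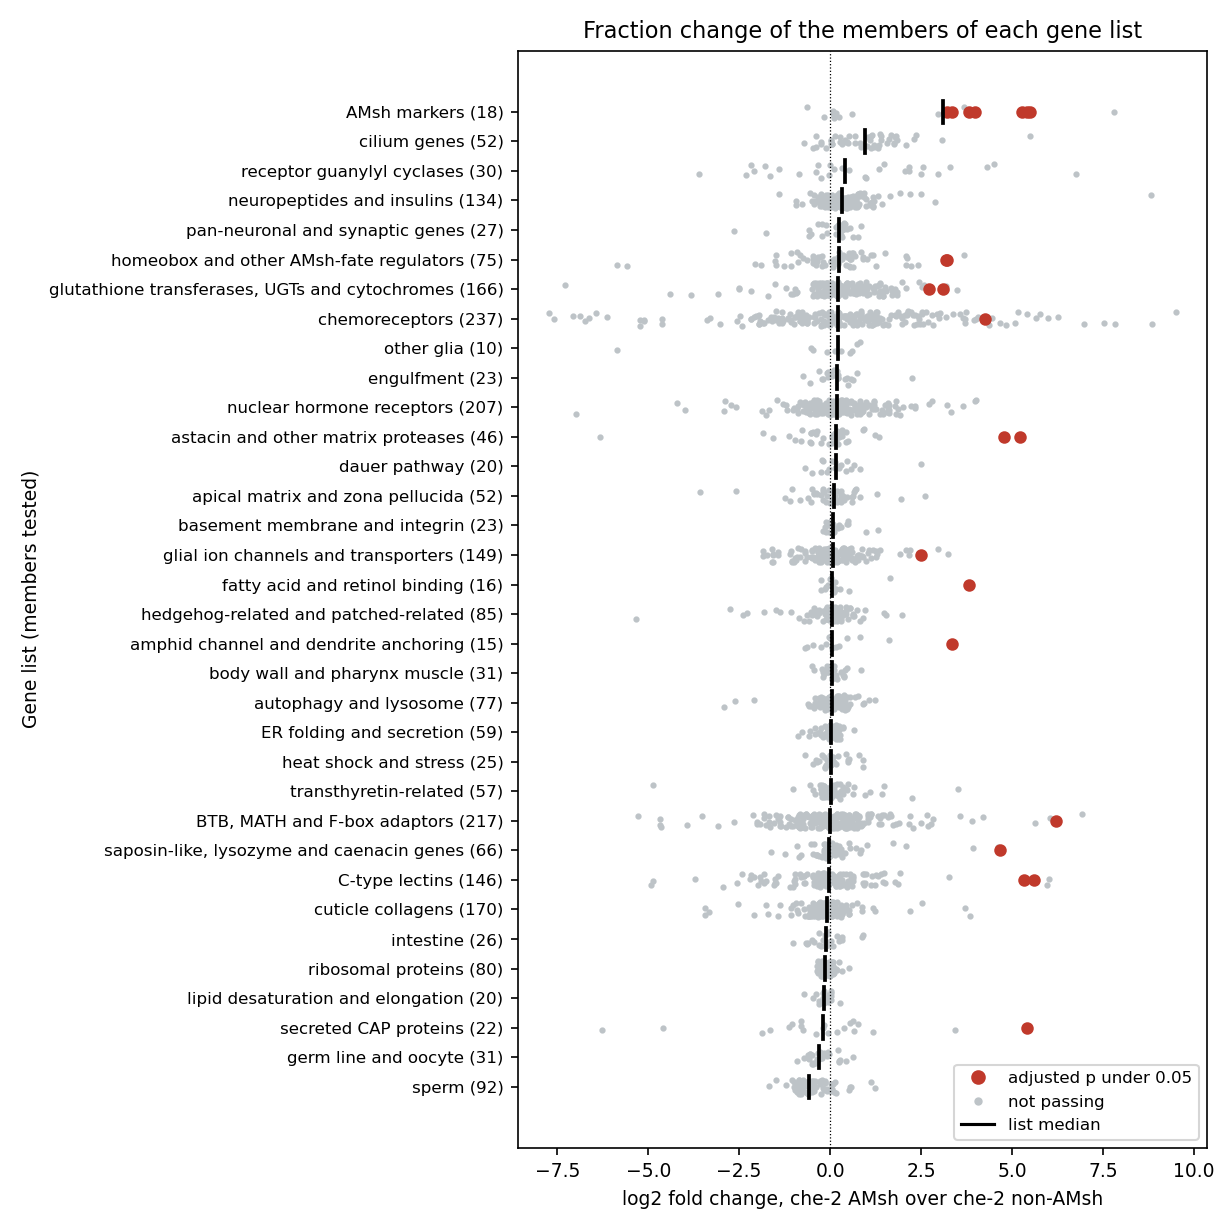
Fitted log2 fold change (che-2 AMsh over che-2 non-AMsh) of the tested members of each gene list with at least 10 of them, ordered by the list median (black bar); red points passed at an adjusted p under 0.05. Apart from the AMsh markers (median 3.09), red points are 1 or 2 members of lists whose medians lie near 0. Some of these lists hold larger changes that did not pass.

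RNA of other cell types was present in the AMsh fraction, and the summed levels of each of 9 other cell types overlapped between the fractions as groups. Within cultures, the sums of ciliated neuron, general neuronal, body wall muscle and other glia markers were higher in AMsh in all 3 cultures, those of intestinal and sperm markers were lower in all 3, and the other 3 sums went both ways. The 10 markers of ciliated neurons summed to 103.9, 262 and 108 CPM in AMsh and 86.3, 114 and 74.4 CPM in non-AMsh libraries. The 10 general neuronal markers summed to 877, 1949 and 878 CPM in AMsh and 731, 1549 and 796 CPM in non-AMsh libraries. Body wall muscle markers (6 genes) summed to 3523, 5101 and 3696 CPM in AMsh and 2738, 3698 and 2702 CPM in non-AMsh libraries. Their most abundant gene, the muscle myosin unc-54, was at 1661, 3043 and 2127 CPM in AMsh and 1108, 1565 and 1141 CPM in non-AMsh libraries, without overlap and without passing (0.84, SE 0.34, adjusted p = 1.00). Intestinal markers (7 genes, 1812 to 2797 CPM in AMsh and 1999 to 3016 CPM in non-AMsh libraries), pharyngeal markers (5 genes, 313 to 752 and 404 to 779.9 CPM) and germ line markers (5 genes, 616 to 882 and 640.4 to 882 CPM) were spread over similar ranges. The 6 hypodermal markers went by culture: 11380, 937 and 5606 CPM in AMsh and 8788, 2119 and 6038 CPM in non-AMsh libraries, low in both fractions of E35. The 33 sperm markers were at 1337, 8580 and 3737 CPM in AMsh and 1448, 11000 and 11150 CPM in non-AMsh libraries, low in both fractions of E30. The 5 markers of other glia summed to 44.9, 11.02 and 16.3 CPM in AMsh and 33.7, 8.19 and 6.10 CPM in non-AMsh libraries. No marker of these 9 other cell types passed, and none of those summed here was at 0 in all 3 AMsh libraries. The part of these cells in the differences above was not tested.

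No gene was lower in AMsh glia by edgeR's quasi-likelihood test, and the smallest adjusted p among genes with a negative change was 0.127. That gene, T19C3.7, had no count in the AMsh libraries and 2.09, 1.71 and 1.55 CPM in the non-AMsh libraries. It was also the 1 tested gene with a log2 ratio of -2 or lower in all 3 cultures, against 114 genes with a ratio of 2 or higher in all 3, 76 of them among the 99. Every AMsh library lay below every non-AMsh library in 594 tested genes (3.56%). With the culture as a block 1 gene passed as lower, Y82E9BL.3 (adjusted p = 0.0372), which had 0, 0.0562 and 0 CPM in AMsh and 1.22, 2.18 and 3.28 CPM in non-AMsh libraries. Among genes of at least 5 CPM the smallest p belonged to F13D12.10, at 10.3, 5.57 and 8.23 CPM in AMsh and 16.2, 20.7 and 15.7 CPM in non-AMsh libraries (-1.13, SE 0.36, adjusted p = 0.732). twk-17, a potassium channel gene of the twin-pore family (-1.59), the transporter gene snf-2 (-1.42), gly-4 (-1.16), the acid phosphatase gene pho-8 (-1.94), F40E3.5 (-1.76), sars-2 (-0.92), B0464.9 (-1.61), T06F4.1 (-1.10) and Y53F4B.11 (-1.10) came next, with an adjusted p of 1.00 each. The sperm list had the lowest median, -0.59 over 92 tested genes with 0 called, followed by germ line and oocyte genes (-0.30, 31 tested, 0 called).

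The size of the enrichment differed between cultures, by a similar amount for most of the 99 genes. The median log2 ratio of AMsh over non-AMsh CPM (0.5 CPM added to each) of the 99 genes was 2.75 in E30, 5.43 in E35 and 4.56 in E36, which is 6.73-fold, 42.98-fold and 23.5-fold. Over all tested genes these medians were 0.00, -0.10 and 0.00. In the AMsh libraries 92 of the 99 genes had the order E30 below E36 below E35. In the non-AMsh libraries no order held more than 21 of them. For a given gene the 3 ratios spanned a median of 2.71 on the log2 scale, and 0.77 once the median of each culture was subtracted. The exceptions to the common order included R07A4.4, at 121, 46.1 and 123 CPM in AMsh and 8.35, 2.18 and 3.19 CPM in non-AMsh libraries, and best-13. E35, the culture with the highest ratios, was also the one whose AMsh library had the fewest detected genes and the largest share of ribosomal RNA. In it, 1151 tested genes had a log2 ratio of -2 or lower, against 91 in E30 and 84 in E36. The part of library quality in these ratios was not tested.

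**Figure D3:**
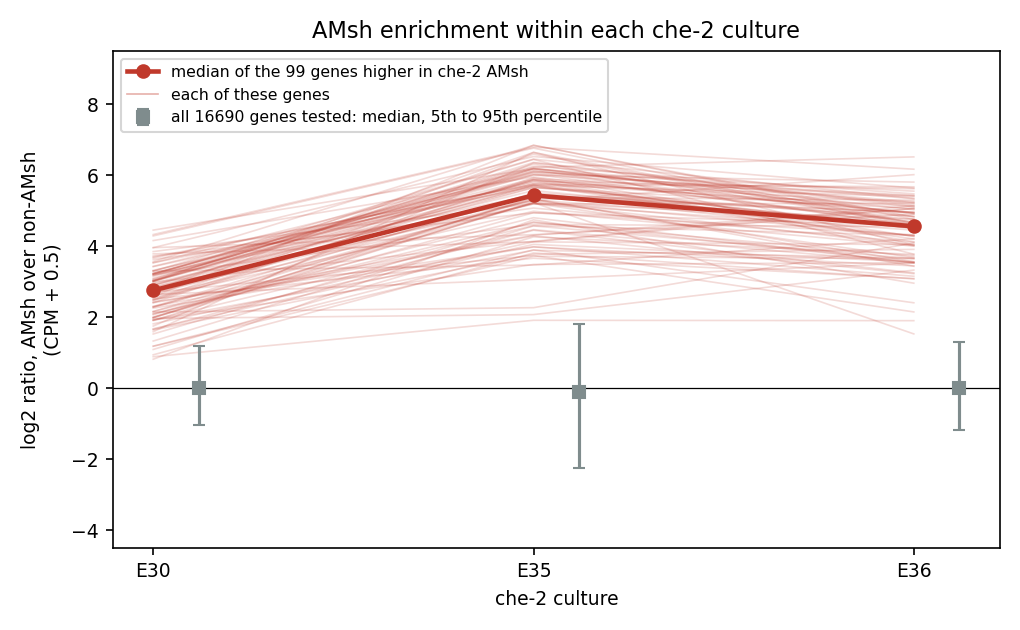
log2 ratio of AMsh over non-AMsh CPM (0.5 CPM added to each) within each che-2 culture, for each of the 99 genes higher in che-2 AMsh (thin lines), their median (thick line with points), and all 16690 tested genes (grey squares with the 5th to 95th percentile). The medians of the 99 genes are 2.75, 5.43 and 4.56 in E30, E35 and E36, while the medians of all genes stay at 0.00, -0.10 and 0.00.

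Both fractions of a culture came from the same animals, and the fit with the culture as a replicate block called 81 genes higher, 67 of them among the 99. The 32 genes that it did not call all kept a positive change with an unadjusted p under 0.05. They had been called from these same libraries without overlap between the groups, so nothing is read from this. Leaving out both che-2 fractions of E30 gave 94 genes, and leaving out those of E35 or of E36 gave 0. With the block these counts were 89, 10 and 0, an alternative added after seeing the data. At the threshold, the 3 genes just inside were C47E12.14 (2.18, 10.18 and 5.598 CPM in AMsh and 0, 0.177 and 0.188 CPM in non-AMsh libraries, adjusted p = 0.0491; blocked adjusted p = 0.0609), R07A4.4 (adjusted p = 0.0487) and C31H5.1, at 44.98, 356 and 153 CPM in AMsh and 4.64, 4.66 and 3.66 CPM in non-AMsh libraries (adjusted p = 0.0481). Just outside were rom-2, a rhomboid-related gene, at 17.2, 121 and 58.0 CPM in AMsh and 7.02, 8.02 and 7.17 CPM in non-AMsh libraries (adjusted p = 0.0529), scl-3 (adjusted p = 0.0651) and clc-2, of the claudin-like family, at 10.16, 31.7 and 25.3 CPM in AMsh and 5.16, 4.72 and 3.70 CPM in non-AMsh libraries (adjusted p = 0.0651).

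The 99 genes had several features in common that the comparison did not use. Of them, 97 are annotated as protein-coding, with a median length of 200 residues against 349 over all tested protein-coding genes. Proteins under 150 residues made up 36.1% of the 97 (35 genes), against 14.8% of those tested. Put the other way, 1.51% of the tested genes with proteins under 150 residues were called, against 0.650% of those with at least 150 and under 400 residues and 0.262% of those with 400 or more. The longest was fig-1 with 2898 residues, and the shortest had 75. No gene name beyond the sequence name was given for 69 of the 97 (71.1%), against 43.7% of the tested protein-coding genes. The 34 lists by family and role held 18 of the 99 genes, and 81 were in none. Chromosome V held 48 of the 99 genes (48.5%, against 21.7% of tested genes), IV 22, X 13, III 6, I 5 and II 5. No set test was run on these shares.

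Several of the genes lie beside each other. Another of the 99 was found within 10000 bases of 31 of them (31.3%), against 2.32% of the tested genes that were not called, and these 31 form 13 groups. The largest is a run of 5 on chromosome V from 14246242 to 14254320, K02E11.3, K02E11.4, K02E11.6, K02E11.5 and K02E11.7, with log2 fold changes of 4.87, 4.84, 5.45, 5.32 and 5.90. Of the 6 tested genes in this stretch, WBGene00010518 alone was not called. K02E11.3 was at 55.9, 322 and 180.4 CPM in AMsh and 8.23, 5.95 and 4.92 CPM in non-AMsh libraries, and K02E11.5 at 36.8, 365 and 133 and 5.04, 3.30 and 5.06 CPM. The 5 encode short proteins of 126 to 135 residues. On chromosome X, vap-1 lies beside F11C7.2 (4.83; blocked adjusted p = 0.115) and F11C7.7 (4.128; blocked adjusted p = 0.126) between 17393789 and 17399353. On chromosome IV, R05A10.4 (5.11), R05A10.3 (5.12) and R05A10.2 (3.501; blocked adjusted p = 0.0599) lie between 14172484 and 14178941. The other 10 groups are pairs. Among them T02B11.3 lies beside T02B11.4 (3.40), spig-1 beside txt-17 (3.58), spig-6 beside F57E7.4 (5.40), C12D5.10 beside C12D5.9 (5.39) and ZK105.12 beside ZK105.13 (3.55; blocked adjusted p = 0.0640). In all, 13 of the 99 genes overlap another tested gene, 12 of them on the other strand, and none of the 12 partners passed. K01A6.8 (5.25) and K01A6.7 (4.59) both overlap K01A6.6, and whether reads were counted by strand is not given in the sources used here, so their split is uncertain.

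Set beside the same comparison in wild type, the che-2 list held nearly all of the wild type list and further genes. Of the 99 genes, 71 (71.7%) were also higher in wild type AMsh glia. These are 98.6% of the 72 genes called in wild type among the 16690 tested. The remaining wild type gene, C18D1.2, had a log2 fold change of 3.26 in che-2 (adjusted p = 0.868) and 7.14 in wild type. All 99 had a positive change in wild type, 98 of them in all 3 cultures, and the median was 4.85 in che-2 and 4.54 in wild type. The matching wild type shares over all tested genes are not given here, so nothing is read from the counts of positive changes. The difference of the change between genotypes, tested directly, passed for 0 of the 99 genes (smallest adjusted p = 1.00, edgeR's quasi-likelihood test); 6 had an unadjusted p under 0.05, and 281 of all tested genes did. DESeq2 called 4 tested genes for this difference, none among the 99. The fitted change was larger in che-2 for 76 genes and larger in wild type for 23, but the genes were chosen by their call in che-2, which favours larger values there, and nothing is read from this count or the medians.

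The 5 genes with the smallest p for this difference among those called in che-2 and not in wild type were srlf-3, srr-1, C05B5.8, C14E2.12 and spp-19, and none passed. srlf-3 was at 240.0, 675 and 551 CPM in che-2 AMsh and 63.3, 59.9 and 47.2 CPM in che-2 non-AMsh libraries, against 144, 184 and 126 CPM and 149, 94.7 and 43.04 CPM in the wild type fractions (difference of log2 changes 2.44, SE 0.67, unadjusted p = 0.00342). In wild type its fractions overlapped. srr-1 had 15.3, 17.4 and 23.8 CPM in wild type AMsh and 4.63, 9.70 and 4.97 CPM in wild type non-AMsh libraries, so its wild type AMsh levels lay below all che-2 AMsh levels (difference 2.72, SE 0.89, unadjusted p = 0.00966). C05B5.8 had 75.4, 341 and 207 CPM in che-2 AMsh and 25.9, 12.8 and 17.3 CPM in che-2 non-AMsh libraries, with log2 changes of 3.48 in che-2 and 1.41 in wild type (difference 2.07, SE 0.74, unadjusted p = 0.0163). C14E2.12 had log2 changes of 2.96 in che-2 and 0.89 in wild type, and spp-19 of 4.67 and 1.95. With the block, C05B5.8 did not pass in che-2 (blocked adjusted p = 0.0609). spig-5, singled out after its values were seen, was at 44.1, 376 and 277 CPM in che-2 AMsh and 7.54, 8.25 and 8.49 CPM in che-2 non-AMsh libraries, against 1.87, 2.02 and 1.21 CPM in wild type AMsh and 0, 0.424 and 0.366 CPM in wild type non-AMsh libraries. It was thus lower in both wild type fractions, and the difference of its changes was 2.18, SE 1.16, unadjusted p = 0.0859.

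**Figure D4:**
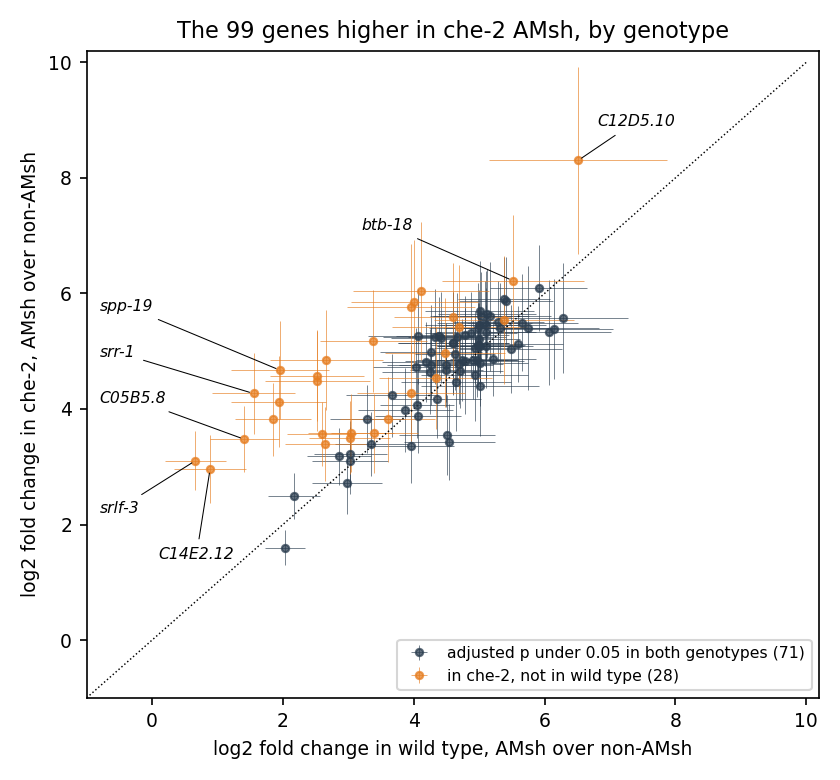
Fitted log2 fold change of AMsh over non-AMsh for the 99 genes higher in che-2 AMsh, in che-2 (vertical axis) and in wild type (horizontal axis). Bars are 1 approximate SE, derived from the F statistic of the test, and the dotted line marks equality. All 99 points lie above 0 in wild type, 71 of them passed in both genotypes (dark) and 28 in che-2 alone (orange), and the difference between genotypes passed for none.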

How the data were processed

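RNA sequencing counts of both sorted fractions were compared in che-2(e1033), with the wild type fractions in the same fit. Per the submitters' processing notes, the authors used CASAVA 1.8.2, FastQC, STAR 2.3, featureCounts and the build WBcel235; how strand and multi-mapping reads were handled is not given in the sources used here. Values in the deposited table are whole-number counts per gene, not normalised, beside the summed exon length in bases, used for levels per kilobase. Of its genes, 43623 matched a reference symbol and 46364 the reference annotation. Libraries were assigned by the culture codes in titles and header lines, because replicate numbers in the titles and some column names conflict with these codes.

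Counts were scaled by TMM, filtered with filterByExpr for the 4 groups, and fitted with edgeR 4.0.16 in R 4.3.3 (quasi-likelihood, biological coefficient of variation 0.732 on 8 residual degrees of freedom). Tests were 2-sided, Benjamini-Hochberg adjusted over 16690 genes, with calls at 0.05. Each SE is approximate: it is the absolute log2 fold change divided by the square root of the F statistic of its test. The difference between genotypes was the interaction contrast. The fit was tested on simulated data. DESeq2 1.42.0 and limma 3.58.1 were alternatives, beside other scalings, filters, blocks and left-out libraries, and Python 3.11.15 made tables and figures. A library with no count allows at most 0.129 to 0.195 CPM in the che-2 libraries (3 counts of the total). Intervals and such limits cover counting error only, because amplified reads are not independent molecules.

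The fractions of a culture are paired by their animals. After group means were removed, their correlation across 16690 genes in che-2 was 0.503 (E30), 0.416 (E35) and 0.159 (E36), against -0.439 to 0.047 between cultures. The block was therefore the first alternative, with its values given where it changes a call. Whether cultures were grown on separate days is not stated. The p-values of the main fit measure the spread between libraries within the 4 groups. With the block they measure the spread left after the level of each culture is removed.

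The gene lists, the naming rule and the features described were chosen with earlier results of these data known. Named were the 20 largest called changes (mean of at least 5 CPM, no overlap), the 10 most abundant called genes, the 10 genes with a negative change and the smallest p, the AMsh markers and che-2, up to 5 called members or the member with the smallest p of each list, neighbouring called genes, 5 genes by the genotype difference and 3 genes on either side of the threshold. The description of protein hydrophobicity and of promoter motifs was not run, as no sequence was used here.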

Additional observations from a re-analysis of the deposited data

How the results depend on the processing

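Of 30 alternatives, the count of 99 genes higher in che-2 AMsh stayed within 1.5 times of that value in the fits with the culture (81) or the code (81) as a replicate block, with the 6 che-2 libraries and the block (85), with size factors (91) or upper-quartile scaling (89), without a filter (122), with a stricter filter (99), without mitochondrial and ribosomal RNA genes (89), with limma-voom (127) and without the AMsh library of fewest detected genes in each genotype (84). It was 0 with the 6 che-2 libraries alone (473 at an unadjusted p under 0.05) and 174 with DESeq2. The cause of these differences was not tested. Leaving out libraries gave 0 to 127. Genes lower in AMsh numbered 0 in the main fit, 1 with the culture block, 9 with DESeq2, 1 with limma-voom and 0 to 4 when libraries were left out. The genotype difference was called for 0 of the 99 in each alternative that gave it. Among 64 named genes that passed, all 30 alternatives kept the direction (lowest log2 fold change 1.71). These genes do not overlap between the groups, so their direction could hardly change. Of their values in the alternatives, 1130 were on the same side of the threshold and 789 no longer past it, and the cause was not tested. daf-6, which did not pass, ranged from -1.58 to 0.0324 when libraries were left out. Without AMsh E30, ver-1 had no count left and no value. With 3 libraries a group and a coefficient of variation of 0.732, no change under 1.594 on the log2 scale was called.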
